A study of Homo sapiens with 2 samples.

Results

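Kinesin genes encode the motor proteins that step along microtubules, and they were taken from the APC peak list as all peaks whose named gene carries a KIF or KIFC symbol with a number and an optional letter A, B or C. The pattern matched 127 of 44771 peaks, and these named 37 of 17266 gene names in the list. RefSeq holds 42 protein-coding human genes of that pattern, so 5 kinesins (KIF1C, KIF5C, KIF19, KIF20A and KIF25) had no peak named for them. The 42 genes were grouped by textbook role into 15 mitotic kinesins, 15 transport kinesins and 12 others, which act in cilia, signalling or microtubule regulation or have no settled role.

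The series contains 1 anti-APC chromatin immunoprecipitation library, made with a polyclonal antibody that recognises the APC C-terminus, and 1 library of input chromatin that had been pre-cleared with rabbit IgG. Both came from HCT-116, a colon carcinoma line that carries wild-type APC and a CTNNB1 allele lacking Ser45, which makes β-catenin resistant to degradation. No other condition, no replicate and no control-antibody immunoprecipitation was analysed here, and the peak list is that of the APC library. With 1 library there is no test between conditions, and the read depth is unknown. The intervals below treat genes, or peaks, as independent draws, although peaks of 1 gene can be related. They do not cover variation between libraries.

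APC, a brake on β-catenin in the WNT pathway, also binds microtubules, and it travels to the tips of cell protrusions with the heterotrimeric kinesin built from KIF3A, KIF3B and the adaptor KIFAP3. Mitotic kinesins build the spindle, move chromosomes and complete cytokinesis, and many of their genes are transcribed mostly in G2 and mitosis. Transport kinesins carry vesicles, organelles and protein complexes, several of them mainly in neurons. As chromatin immunoprecipitation measures where a protein is recovered on DNA, a peak at a kinesin gene describes the gene and not the motor.

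The promoters of 6 kinesins are shown, in each class those whose start lies closest to the centre of a covering peak, so that mitotic genes (KIF4A, KIF18B, KIF2A and KIF23) can be read beside transport genes (KIF3B and KIF5B). Each line gives the 250 bases before the gene start, 5′ to 3′ on the gene's own strand, from RefSeq on GRCh38.p14. Capitals mark the sequence words searched for, on either strand: the CHR element TTTGAA, the CCAAT box CCAAT, the GC box GGGCGG, and the TCF/LEF words CTTTGAT and CTTTGTT. No word contains another.
KIF4A (chrX:70289854-70290103, plus strand): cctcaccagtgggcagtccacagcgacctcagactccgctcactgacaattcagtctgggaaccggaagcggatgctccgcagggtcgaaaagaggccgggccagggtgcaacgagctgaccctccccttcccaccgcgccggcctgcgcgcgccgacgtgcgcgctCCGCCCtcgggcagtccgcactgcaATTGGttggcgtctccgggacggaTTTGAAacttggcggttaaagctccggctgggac
KIF18B (chr17:44947774-44948023, minus strand): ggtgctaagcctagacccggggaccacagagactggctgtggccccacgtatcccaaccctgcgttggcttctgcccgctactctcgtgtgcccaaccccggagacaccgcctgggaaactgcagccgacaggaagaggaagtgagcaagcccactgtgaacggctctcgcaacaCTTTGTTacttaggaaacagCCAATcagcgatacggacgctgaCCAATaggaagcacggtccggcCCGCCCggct
KIF2A (chr5:62305956-62306205, plus strand): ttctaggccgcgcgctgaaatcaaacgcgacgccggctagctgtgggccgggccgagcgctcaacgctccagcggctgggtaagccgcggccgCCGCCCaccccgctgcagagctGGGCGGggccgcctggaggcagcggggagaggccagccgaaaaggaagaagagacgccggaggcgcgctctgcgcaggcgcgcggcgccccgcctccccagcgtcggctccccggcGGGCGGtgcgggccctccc
KIF23 (chr15:69414099-69414348, plus strand): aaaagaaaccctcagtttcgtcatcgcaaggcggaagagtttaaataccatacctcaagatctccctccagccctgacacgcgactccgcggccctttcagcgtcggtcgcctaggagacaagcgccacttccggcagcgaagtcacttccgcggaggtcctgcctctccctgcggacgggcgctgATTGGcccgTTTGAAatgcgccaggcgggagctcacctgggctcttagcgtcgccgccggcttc
KIF3B (chr20:32277401-32277650, plus strand): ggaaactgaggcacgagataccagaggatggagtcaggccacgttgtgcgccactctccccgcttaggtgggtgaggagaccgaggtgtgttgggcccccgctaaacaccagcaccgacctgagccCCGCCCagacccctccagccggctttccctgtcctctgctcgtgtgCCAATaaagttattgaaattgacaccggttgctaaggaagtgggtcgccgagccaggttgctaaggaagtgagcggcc
KIF5B (chr10:32056426-32056675, minus strand): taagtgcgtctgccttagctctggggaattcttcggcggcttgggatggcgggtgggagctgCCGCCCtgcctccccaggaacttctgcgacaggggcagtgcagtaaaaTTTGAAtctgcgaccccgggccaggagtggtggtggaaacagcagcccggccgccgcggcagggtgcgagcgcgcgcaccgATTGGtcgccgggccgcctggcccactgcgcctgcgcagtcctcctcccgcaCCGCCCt
KIF4A and KIF23 each hold a CCAAT box (ATTGG on the strand shown) upstream of a CHR element, with first bases 58 and 34 bases before the gene start in KIF4A and 64 and 55 bases before it in KIF23, whereas KIF2A, with a window GC content of 75.7%, holds GC boxes alone. KIF18B holds a pair of CCAAT boxes and a TCF/LEF word, and its CHR element lies just past the gene start, outside the bases shown. KIF3B holds a CCAAT box and a GC box without a CHR element, and KIF5B holds a CHR element farther from the start than its CCAAT box. The RefSeq gene start need not be the TSS used in the peak list. Peak coordinates elsewhere in the text are on hg19, the build of the peak list, and the GRCh38.p14 positions above belong to the sequences only.

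Kinesin starts carried peaks in 21 of 42 genes. Here a start counts as covered when a peak named for the gene contains the transcription start site (TSS), judged from the listed distance between peak centre and TSS and from the peak length. The share was 50.0% (95% Wilson interval 35.5 to 64.5), and over 20037 protein-coding genes it was 36.5%. These shares also count genes with no named peak as uncovered. Among names with a peak and a known strand, the covered share was 54.3% for 35 kinesins and 55.3% for 12182 protein-coding names, so there it was about the same. A looser rule, a peak centre within 10 kb of the TSS, took in 28 of 42 kinesins (66.7%, interval 51.6 to 79.0), against 50.9% of protein-coding genes. Without genes whose symbol is LOC and a number, the protein-coding share within 10 kb was 52.6% of 19378 genes. The gap between kinesins and all genes is given as a description, since the members were chosen by name and nothing was tested.

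The mitotic and transport classes differed in where their peaks lay. All 9 mitotic kinesins with a centre within 10 kb (60.0% of 15, interval 35.7 to 80.2) had that peak over the TSS itself, and their centres were within 1 kb. Transport kinesins had a centre within 10 kb in 13 of 15 genes (86.7%, interval 62.1 to 96.3) and a peak over the TSS in 7 (46.7%, interval 24.8 to 69.9). Over all protein-coding genes these shares were 50.9% and 36.5%. Of the 10201 protein-coding genes with a centre within 10 kb, 2881 had no named peak over the TSS. The intervals of the classes overlap under both rules. The order of the classes depended on the distance allowed: within 1 kb the counts were 9 mitotic and 6 transport genes, within 3 kb they were 9 and 9, and within 50 kb they were 13 and 13. The corresponding share of protein-coding genes was 35.1% within 1 kb and 64.0% within 50 kb. The other kinesins, with 6 of 12 genes (50.0%) within 10 kb and 5 starts covered (41.7%), stood close to the shares of all protein-coding genes.

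**Figure D1:**
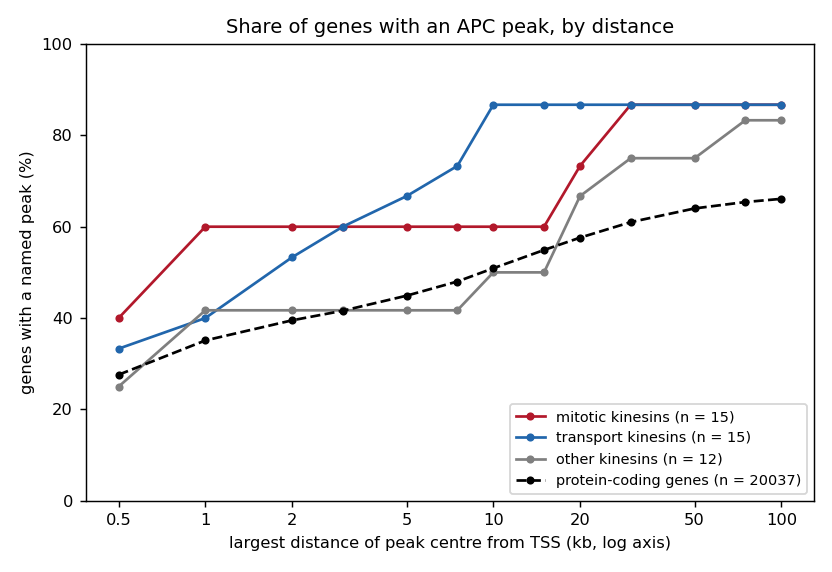
Share of genes (percent) with a named APC peak whose centre lies within a given distance of the TSS (kb, log axis), for mitotic, transport and other kinesins and for all protein-coding genes. The mitotic line is flat at 60.0% from 1 to 15 kb, while the transport line climbs to 86.7% at 10 kb.

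Among kinesins, the nearest peak centres left a gap just beyond the 10-kb limit. The farthest kinesins inside it were KIF13B, centred 8730 bp upstream, and KIF12, 9225 bp upstream. The nearest outside it were KIF21B, 16030 bp downstream, and KIF4B, 17055 bp downstream. A limit of 7.5 kb took in 11 transport kinesins (73.3%) and 9 mitotic kinesins (60.0%), against 48.0% of protein-coding genes. Of the partner genes described below, RACGAP1 lay just outside the 10-kb limit, with its nearest peak centred 10012 bp downstream.

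Among the mitotic kinesins, 9 starts were covered. All 9 peaks were annotated as promoter peaks, and 4 of them belonged to kinesins of chromosomes or of spindle microtubule ends. KIF4A, a chromokinesin that organises chromosomes and the central spindle, carried a promoter peak of 1307 bp with its centre 22 bp downstream of the TSS (chromosome X, 69509249 to 69510554), and a 685-bp Alu-centred peak in intron 13. KIF22, the chromokinesin Kid that pushes chromosomes from the poles, had a single peak, the longest of the mitotic class at 3649 bp, centred 809 bp upstream (chromosome 16, 29799402 to 29803049). KIF18A, which damps chromosome oscillation at metaphase, had a single 1368-bp peak centred 186 bp downstream (chromosome 11, 28128877 to 28130243). The annotation of that peak refers to the promoter of METTL15, so the KIF18A start lies in a stretch that is also listed as another gene's promoter. KIF18B, which shortens astral microtubules, had a 1961-bp promoter peak centred 26 bp downstream (chromosome 17, 43024074 to 43026033).

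KIF11 and KIF2A, which shape the spindle, also had their starts covered. KIF11, the Eg5 motor that pushes the spindle poles apart, had a 3289-bp promoter peak centred 985 bp upstream (chromosome 10, 94350197 to 94353484). It had 4 more peaks of 959 to 1476 bp in its introns 1, 4, 6 and 12. KIF2A, a microtubule-depolymerising kinesin of the spindle poles that also acts in neurons, had a 2803-bp promoter peak centred 61 bp upstream (chromosome 5, 61600528 to 61603329). The second KIF2A peak, 821 bp long, was centred in an Alu element of intron 2.

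KIF23, KIF20B and KIF14, which act in cytokinesis, each had a peak over the start. KIF23, the motor of centralspindlin, had a 1847-bp promoter peak centred 67 bp downstream (chromosome 15, 69705730 to 69707575). Its other peaks, of 1317 and 712 bp, lay in introns of the neighbouring gene PAQR5. KIF20B, which acts late in cytokinesis, had a 1387-bp promoter peak centred 82 bp downstream (chromosome 10, 91460737 to 91462122) and a 575-bp Alu-centred peak in intron 8. KIF14, a midbody kinesin that recruits citron kinase, had a 2170-bp promoter peak centred 542 bp upstream (chromosome 1, 200589320 to 200591488). The other 6 KIF14 peaks were all centred in Alu elements and measured 614 to 1482 bp. KIF20A, the cytokinesis motor MKLP2, had no named peak. The protein-coding genes on either side of it are BRD8, with no named peak, and CDC23, which had a 1709-bp peak over its own start. Whether the CDC23 peak reaches the KIF20A start was not analysed here.

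The remaining mitotic kinesins had peaks at a distance. KIF2C, the centromeric depolymerase MCAK, had a single 2204-bp peak 17295 bp upstream, centred in an Alu element in an intron of ARMH1. KIFC1, the minus-end-directed motor HSET that clusters centrosomes, had a single 2289-bp peak, intergenic, Alu-centred and 20549 bp upstream. KIF15, a spindle motor that works beside KIF11, had 2 short Alu-centred peaks of 611 and 679 bp in introns 6 and 7, the nearer 24331 bp from its start. Its start did lie under a peak, a 2067-bp promoter peak named for KIAA1143 (chromosome 3, 44801744 to 44803809). KIF2B, a kinesin-13 relative of KIF2A, had 5 intergenic peaks of 539 to 1183 bp, the nearest 104981 bp from its start. KIF4B, a retrocopy of KIF4A, had 2 intergenic peaks of 893 and 636 bp, the nearest 17055 bp from its start. KIF4A and KIF4B are near-identical in their coding sequence, and how reads that map to both were treated is not given in the sources used here.

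Among the transport kinesins, the most peaks were named for KIF1B, KIF5B and KIF13A. KIF5B, the widely expressed conventional kinesin heavy chain, had 8 peaks, of which a 1915-bp one was centred 160 bp downstream of the TSS, in the 5′ UTR (chromosome 10, 32344255 to 32346168). KIF5A, its mainly neuronal relative, had a 2525-bp promoter peak centred 316 bp upstream (chromosome 12, 57942270 to 57944793) and a 2315-bp Alu-centred peak in intron 1. KIF5C, the other neuronal relative, had none. Of its flanking genes, LYPD6B had no peak over its start, and EPC2 had one of 2410 bp over its own, whose position relative to the KIF5C start was not analysed here. The 3 conventional heavy chains thus ranged from none to 8 named peaks.

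KIF1B, a kinesin-3 that moves mitochondria and synaptic vesicle precursors, had 10 peaks. One of 2562 bp was centred in a CpG island in intron 1, 232 bp downstream of the start (chromosome 1, 10269716 to 10272276). Of the rest, 4 lay in or at the end of the neighbouring gene UBE4B, 28820 to 62259 bp upstream, and 3 were intergenic, the nearest of them 2968 bp long, Alu-centred and 4694 bp upstream. The last 2 lay in introns 1 and 2. KIF1A, the neuronal synaptic vesicle motor, had 1 peak of 1649 bp in intron 1, centred 7505 bp downstream of the start. KIF1C had no named peak, and neither neighbour, INCA1 or SLC52A1, had a peak over its start. KIF16B, which moves early endosomes, had a 3485-bp peak centred 1010 bp upstream that was annotated as intergenic and still reached over the start (chromosome 20, 16553348 to 16556831). One of its other 3 peaks was named for it from 650725 bp away, inside an intron of MACROD2.

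The kinesin-2 genes, among them those of the motor that carries APC, were not alike. KIF3B had a 1900-bp promoter peak centred 79 bp upstream (chromosome 20, 30864426 to 30866324) and 2 Alu-centred peaks in intron 1. KIF3A had a single 795-bp peak, centred in an AluY element 2861 bp upstream. KIF3C, a paralogue that pairs with KIF3A, had 5 peaks and none over its start, the nearest being 1563 bp long, Alu-centred and 4777 bp upstream, and the longest 3093 bp long and 20270 bp upstream. KIF3B was thus the one kinesin-2 heavy chain of these 3 with its start under a peak. KIF17, a homodimeric kinesin-2 of cilia and dendrites, had a 1465-bp peak in intron 1 centred 1305 bp downstream, whose edge stopped 573 bp short of the TSS.

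KIF13A and KIF13B, kinesin-3 motors of membrane cargo, had 7 and 5 peaks with none over their starts. The nearest to KIF13A was a 658-bp Alu-centred peak 6045 bp downstream. The nearest to KIF13B was a 1199-bp intergenic peak 8730 bp upstream. KIF13B also had the longest kinesin peak of all, 4071 bp, Alu-centred and 25140 bp upstream. The minus-end-directed motors KIFC2 and KIFC3 had 1 peak each, over the start in both cases. The KIFC2 peak was 2867 bp long and centred in exon 4, 955 bp downstream of the TSS. The KIFC3 peak was 2489 bp long and centred in a CpG island 337 bp downstream (chromosome 16, 57834859 to 57837346).

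**Figure D2:**
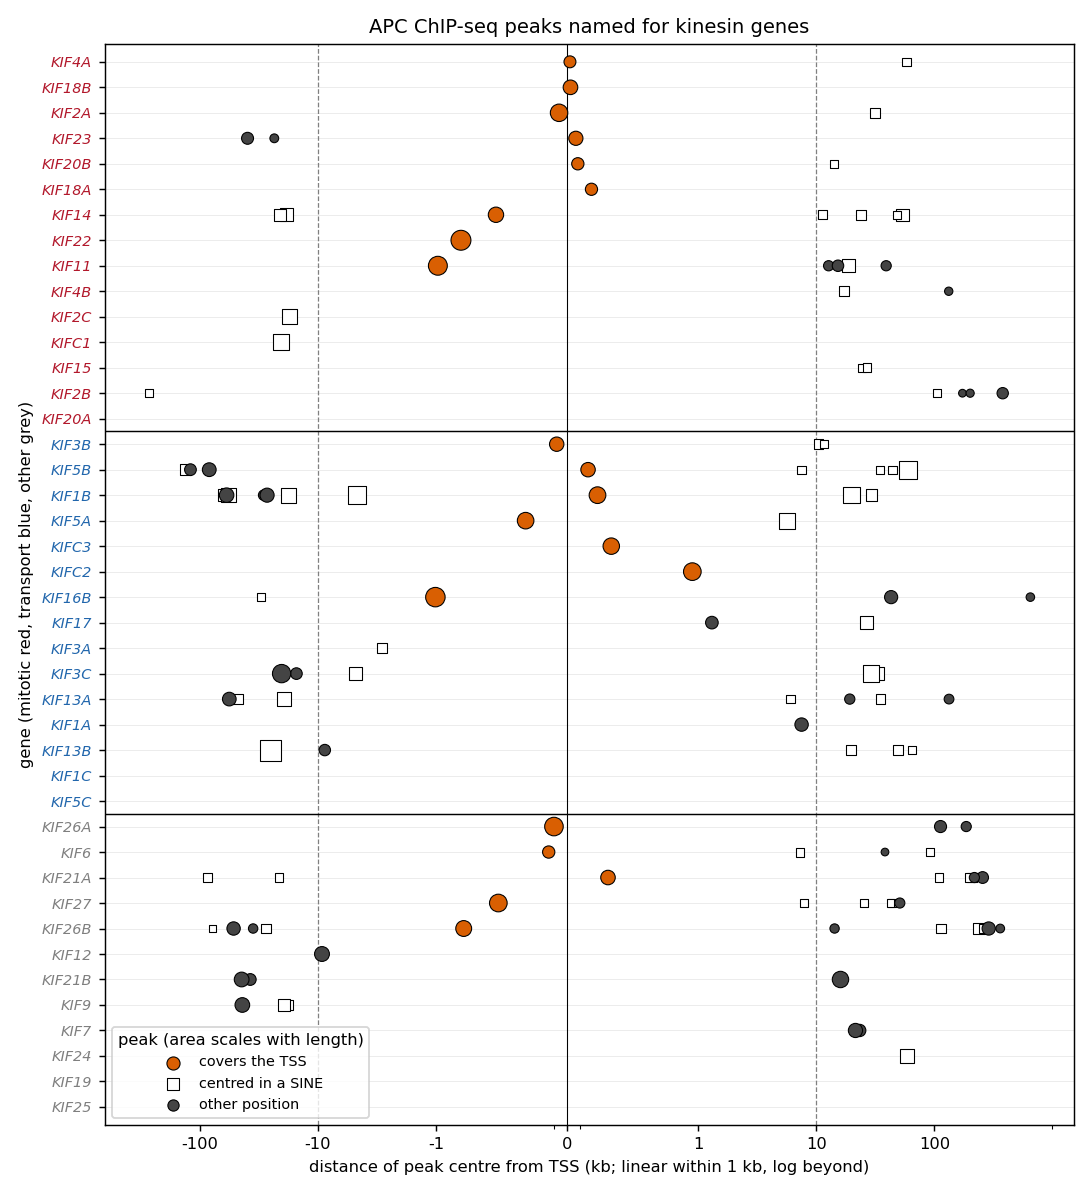
Each of 127 peaks is drawn at the distance of its centre from the TSS of its named kinesin (kb; linear within 1 kb, log beyond), with 1 row per gene, negative values upstream and marker area scaled to peak length. Orange peaks cover the TSS, white squares are centred in SINE elements, dashed lines mark 10 kb, and the 5 empty rows are kinesins with no named peak. Mitotic rows have either a peak of their own name over the start or none within 10 kb, whereas 6 transport rows have a nearest peak between 1305 and 8730 bp. Peaks of other names are not drawn, such as the one named for KIAA1143 over the KIF15 start.

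Of the other kinesins, 5 had a covered start. KIF26A, a signalling kinesin without motor activity, had a 3173-bp promoter peak centred 100 bp upstream (chromosome 14, 104603375 to 104606546). Its paralogue KIF26B had the most peaks of any kinesin, 11, of which 1 of 2314 bp lay over the start (chromosome 1, 245316343 to 245318655). These 11 peaks were spread over 440 kb, and 3 of them lay in introns of the neighbouring gene DRC8. KIF27, a relative of the hedgehog regulator KIF7, had a 2867-bp promoter peak (chromosome 9, 86535472 to 86538337), while KIF7 itself had 2 intronic peaks, the nearer one 21464 bp from its start. KIF21A, which restrains microtubule growth at the cell cortex, had 8 peaks with 1 of 1941 bp over the start (chromosome 12, 39835911 to 39837850). The 4 KIF6 peaks referred to 2 annotated starts, of which 1 was covered by a 1386-bp peak (chromosome 6, 39398598 to 39399982). The third-longest peak of these kinesins belonged to KIF21B and not to a start, being 2469 bp long and in intron 3. KIF12 had a single intergenic peak of 2032 bp, KIF24 a single Alu-centred peak of 1810 bp in intron 7, and KIF9 had 3 peaks of 792 to 1980 bp, all in introns of KLHL18. KIF19 and KIF25 had no named peak, and the genes beside them (DNAI2, BTBD17, AFDN and FRMD1) had none over their starts.

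A peak names 1 gene, so a shared promoter can hide a kinesin. When the starts inferred from the listed distances were set against peaks of any name, 22 of 35 kinesins with a named peak and a known strand lay under one (62.9%). KIFC2 and KIFC3, whose strand was not known, are left out of this count. The 3 under a peak of another name alone were KIF15, KIF9 and KIF24, the last a centriole kinesin. That is 3 of 16 kinesin starts not under a peak of their own name (18.8%), against 414 of 5446 for protein-coding names (7.60%). KIF9, a kinesin of motile cilia, started under a 3379-bp promoter peak named for KLHL18 (chromosome 3, 47322450 to 47325827). The KIF24 start lay under a 2526-bp promoter peak named for NUDT2 (chromosome 9, 34328393 to 34330917). Among 12182 protein-coding names whose strand was known, 58.7% started under a peak of any name. Counted this way, 10 of 14 mitotic and 5 of 11 transport kinesins started under one. KIFC2 and KIFC3 are both transport kinesins with starts covered by their own peaks, and with them the transport count was 7 of 13. Counting peaks of any name was added after the data were seen.

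Peak lengths are given separately for peaks over a start and for the rest. A longer peak reaches a start more easily, so part of the difference between these groups is built into the split, and nothing is read from it. The 21 peaks over a start had a median of 2314 bp (1307 to 3649 bp), and the 106 others 952.5 bp (539 to 4071 bp). Peaks of all protein-coding genes had medians of 2226 bp over a start and 1193 bp otherwise. Within the covered starts, mitotic peaks had a median of 1961 bp (1307 to 3649 bp) and transport peaks 2525 bp (1900 to 3485 bp), and their ranges overlap. KIF22 and KIF11 were among the long ones, exceeding 83.8% and 78.3% of the start peaks of protein-coding genes. KIF4A, KIF18A and KIF20B were among the short ones, exceeding 10.3%, 12.4% and 13.2%. Away from the starts, the median was 829.5 bp for 26 mitotic and 1264 bp for 43 transport peaks.

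**Figure D3:**
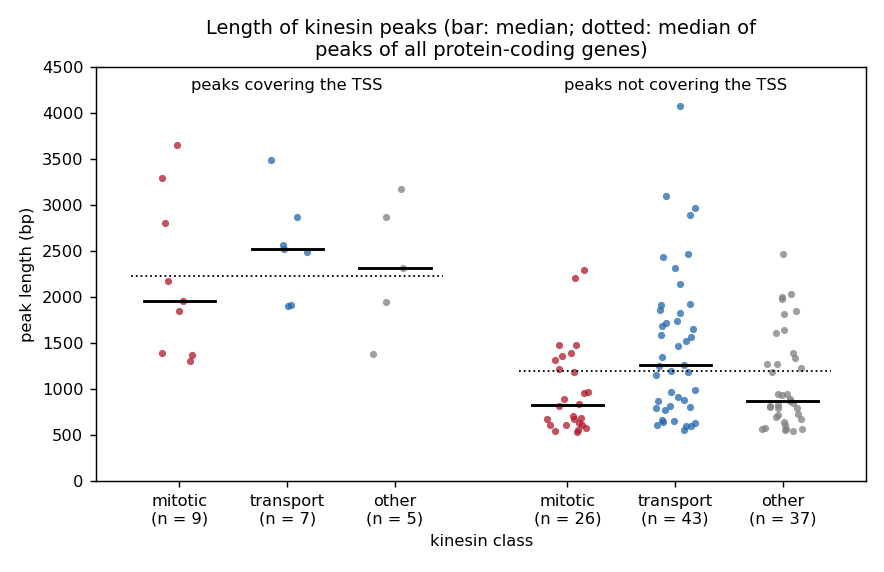
Length (bp) of each kinesin peak by class, with peaks covering the TSS on the left and all others on the right. Solid bars are class medians and dotted lines the medians over peaks of all protein-coding genes (2226 and 1193 bp), and the mitotic and transport points overlap on both sides.

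Most kinesin peaks lay away from starts and many were centred in Alu elements, short interspersed repeats (SINEs) that are abundant in gene-rich DNA. By position, 69 peaks were intronic (54.3%), 38 intergenic (29.9%) and 15 promoter peaks (11.8%), against 45.6%, 36.1% and 11.2% of all peaks. A SINE lay at the centre of 64 of 127 kinesin peaks (50.4%, interval 41.8 to 58.9), against 38.7% of the whole list. All 64 were Alu elements, 47 of them AluS, 10 AluY and 7 AluJ. Away from the starts, SINEs were at the centre of 17 of 26 mitotic peaks (65.4%), 28 of 43 transport peaks (65.1%) and 19 of 37 other kinesin peaks (51.4%), against 48.2% for such peaks of all protein-coding genes. None of the 21 peaks over a start was, which allows a share of up to 14.3% by the limit of 3 counts set for a count of 0, and the share for all protein-coding genes was 2.87%. Without SINE-centred peaks the count of transport kinesins within 10 kb fell to 10 (KIF3A, KIF3C and KIF13A drop out) and the mitotic count was again 9. How reads in repeats were assigned is not given in the sources used here, and the part of repeat mapping in these peaks was not tested.

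The gene that names a peak need not be the gene that holds it. By annotation, 72 kinesin peaks lay in, or at the promoter of, the kinesin that names them, 17 in or at another gene and 38 outside transcripts. KIF26B and KIF9 had 3 peaks each in a neighbour and KIF1B had 4. Named for any peak at any distance were 88.1% of kinesins (14 mitotic, 13 transport and 10 other genes), against 67.5% of protein-coding genes, and this rule credits kinesins with peaks inside neighbours. Per named gene, kinesins had 3.43 peaks (2.50 for mitotic, 3.85 for transport and 4.20 for other kinesins), against 2.62 for protein-coding genes. The number of peaks was not set against gene length, for which hg19 gene models would be needed.

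The words held by the promoter windows also differed between the classes. RefSeq windows of 300 bases, 250 before and 50 after the gene start, were found for 34 of 42 kinesins, and a gene counted if any of its windows held the word on either strand. The CHR element TTTGAA, a site of cell cycle genes read by the DREAM and MuvB complexes, was in 10 of 15 mitotic kinesins (66.7%). It was in 1 of 11 transport kinesins (9.09%), KIF5B, in none of 8 others, and in 15.8% of 15843 protein-coding genes. The CCAAT box, bound by NF-Y, was in 11 of 15 mitotic (73.3%), 4 of 11 transport (36.4%) and 3 of 8 other kinesins (37.5%), against 42.1% of genes. The GC box GGGCGG, bound by SP1 and its relatives, was in 13 of 15 mitotic and 11 of 11 transport kinesins, against 64.3% of genes, and all 8 other kinesins held it too. The shares above were not adjusted for GC content, which bears on GC-rich words and on AT-rich ones such as TTTGAA. GC content was averaged over the windows of each gene. Its median over genes was 62.0% for mitotic and 69.7% for transport kinesins, against 62.3% for all protein-coding genes with a window.

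In the mitotic windows the CHR element lay near the gene start. Counting from its first base on the gene strand to the first base of the gene, it began 34 bases upstream in KIF4A, 28 in KIF11, 55 in KIF23, 10 in KIF18A and 35 in KIF15. In KIF18B, KIF14, KIFC1 and KIF4B it began 2, 1, 4 and 3 bases after the first base, and in KIF20B 24 and 30 bases after it. In KIF5B, by contrast, it began 140 bases upstream. Where the word begins in the windows of all protein-coding genes was not analysed here. The word did not mark the genes with peaks alone: 7 of the 9 mitotic kinesins with a covered start held it, and so did KIF15, KIFC1 and KIF4B, whose starts had no peak of their own name. KIF2A and KIF22, both with covered starts, did not hold it, nor did KIF2C, KIF2B and KIF20A.

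Words for factors downstream of WNT and growth signals were in few windows, of kinesins as of all genes. A TCF/LEF word, CTTTGAT or CTTTGTT, for the DNA-binding partners of β-catenin, was in 2 of 15 mitotic kinesins (13.3%, KIF18B and KIF20A) and in no transport or other kinesin, so in 5.88% of the 34, against 8.01% of genes. The AP-1 word TGANTCA was in 1 kinesin, KIF21A, which is 2.94% of the 34, against 8.04% of genes. A match of letters is not a bound site, and these windows reach only 250 bases before the start while the peaks extend further.

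**Figure D4:**
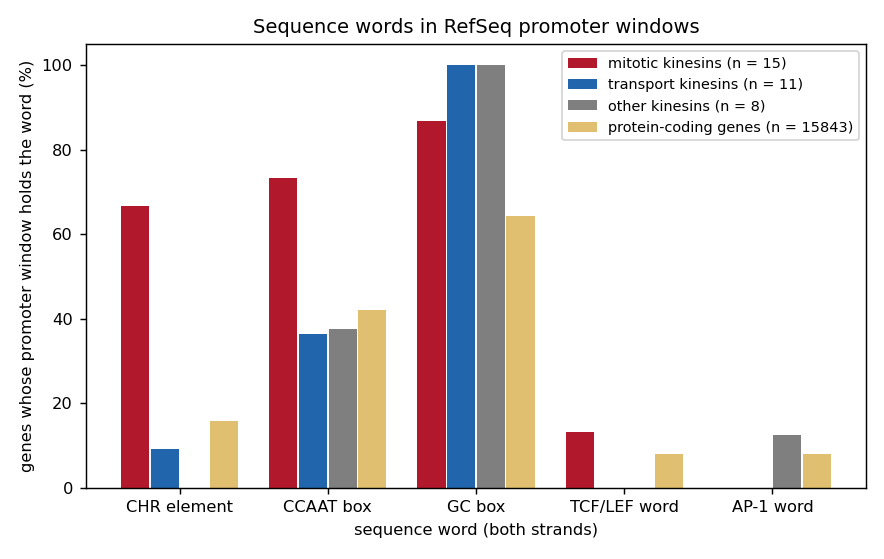
Share of genes (percent) whose RefSeq promoter window holds each sequence word on either strand, for mitotic (n = 15), transport (n = 11) and other kinesins (n = 8) and for 15843 protein-coding genes. The CHR element is in 66.7% of mitotic and 9.09% of transport kinesins, and the GC box is frequent in every class.

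Genes that work with kinesins were set beside them. Of 16 protein-coding kinesin subunits, adaptors and kinesins without a KIF symbol, 11 had a centre within 10 kb (68.8%) and 6 a covered start (37.5%). The longest peaks within 10 kb belonged to the adaptor gene SPAG9 (6849 bp) and to the kinesin light chain genes KLC3 (6109 bp), KLC1 (3902 bp) and KLC2 (2421 bp). KIF28P, a pseudogene outside the name pattern, had no peak. Chosen after their values were seen, KIFAP3, the subunit that links APC to KIF3A and KIF3B, had an 1145-bp peak over its start, and CENPE, the kinetochore kinesin outside the name pattern, one of 1391 bp. Among 12 mitotic partners 9 had a centre within 10 kb and 7 a covered start (58.3%), against 50.9% and 36.5% of protein-coding genes. The longest were at BIRC5 (7619 bp) and NUSAP1 (2679 bp), at TPX2 (1972 bp), the spindle factor that activates Aurora A, and at AURKB (1896 bp), a kinase of the chromosomal passenger complex. Subunit genes of dynein and dynactin, the motor complex that walks the other way, were listed together with its adaptors and regulators, HOOK2 and NDE1 among them. Of these 28 genes, 23 had a centre within 10 kb (82.1%) and 18 a covered start (64.3%). The longest peaks within 10 kb were at HOOK2 (9351 bp), DYNLT1 (4301 bp), DCTN5 (3881 bp) and DCTN1 (3275 bp).

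The labelled cell type was checked at marker genes, although a peak is not a level of expression. Starts were covered for 5 of 10 colon epithelium markers (EPCAM, CDX2, KRT8, KRT19 and CDH1) and for 1 of 10 markers of other cell types (COL1A1). No peak was named for KRT18 or GPA33 among the colon markers, nor for CD3E, DES, MYH6, INS or HBB among the others.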

How the data were processed

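HCT-116 chromatin was profiled with 1 anti-APC library and 1 pre-cleared input library, grouped by their titles, and a single annotated peak table, whose name ties it to the APC library, was used. MACS2 and hg19 are named in the submitters' processing notes. For the caller's version and threshold, the use of the input, the aligner and the annotation tool, settings were not given in the sources used here. In the table deposited by the authors the score of every peak equals end minus start plus 2 bp, so that score was used as a length in bp and never as a strength. Distances run from the peak centre to a TSS, per the file headers and values. Depth per library is unknown, so no floor based on reads was computed.

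Peaks were matched by gene name. The background was 20037 nuclear protein-coding genes of the RefSeq table for GRCh38.p14, used for names, neighbours and transcripts, and 98.5% of protein-coding names in the list matched it. Strand was inferred from pairs of peaks of a gene that give the same TSS, or taken from RefSeq, and KIFC2 and KIFC3 had neither. The inferred strand was the same as RefSeq's for 6306 of 6343 genes. The link and strand steps were checked on simulated data. Shares have 95% Wilson intervals, except that a share of 0 has the limit of 3 counts of the total. No test was run: there is 1 library, and the members, classes, lists and sequence words were chosen with earlier results of these data known. Values were given for every mitotic and transport kinesin with a named peak and, among the others, for those with a covered start, the 3 longest peaks or the most peaks. Partner lists name up to 4 linked members with the longest linked peaks. The roles of KIF2A, KIF13A and KIFC3 span both classes, so counts were repeated without them. Analyses used Python 3.11.15, numpy 2.4.6, pandas 2.3.3, scipy 1.17.1 and matplotlib 3.10.9.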

Additional observations from a re-analysis of the deposited data

How the results depend on the processing

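Of 94 recomputed values over 14 results, 78 stayed within 1.5 times the reported count or within the 95% order-statistic interval of the reported median, and 16 moved. Length limits moved most, and they select on the length itself. With peaks of at least 1350 bp, the median of the list, 55 kinesin peaks were left, with a median of 1941 bp. With peaks of at least 2135 bp, the third quartile, 23 were left with a median of 2562 bp, 12 kinesins (4 mitotic, 5 transport and 3 other) had a centre within 10 kb, and 12 starts were covered, 4 of them mitotic. Without SINE-centred peaks 63 peaks were left, with a median of 1465 bp. Within 1 kb, 6 transport kinesins had a centre, as did 6 of the 16 kinesin subunits, adaptors and kinesins without a KIF symbol. At any distance 14 mitotic and 10 other kinesins had a peak. Leaving out KIF2A, KIF13A and KIFC3 gave 8 mitotic and 11 transport kinesins within 10 kb. Merging peaks within 500 bp left 123. Counting peaks of any name, and the 1-kb and 50-kb limits for partner lists, were chosen after seeing the data. No paired analysis was possible because there is 1 library per group. No leave-one-out was possible for the same reason, and unknown depth limits what a missing peak can show.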
